A study of Homo sapiens with 12 samples.

Results

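The expressed ZNF genes are the rows named ZNF followed by a number whose mean FPKM over both DMSO libraries was 10 or more in KURAMOCHI (Ku) and in COV362 (Cov) cells. Of 472 ZNF rows among 23621 gene rows, 66 met this minimum, 15 met it in Ku only and 34 in Cov only. The members were therefore chosen by their measured DMSO values. Both are established human ovarian cancer cell lines, here untransduced, with Ku grown in RPMI and Cov in DMEM. Each line was treated for 6 hr with DMSO, the vehicle, or with 50 nM or 250 nM THZ1, a covalent inhibitor of CDK7 that also inhibits CDK12 and CDK13. There were 2 biological replicates per condition, which gives 6 libraries per line and 12 in all. Values are FPKM, fragments per kilobase of transcript scaled to library size, normalized by the authors to ERCC spike-in RNAs added per cell number, so that a smaller total of cellular RNA shows as lower values. One table was deposited per line, and the lines were normalized separately, so levels of Ku and Cov cells are set side by side and no difference between them was tested.

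CDK7 phosphorylates the tail of RNA polymerase II near the start of genes, and CDK12 and CDK13 phosphorylate it during elongation. Most ZNF symbols stand for proteins with C2H2 zinc fingers, short folds that hold a zinc ion with a pair of cysteines and a pair of histidines and often read DNA in tandem arrays. Many of these proteins carry a KRAB domain, which recruits the corepressor TRIM28 and, through it, the histone methyltransferase SETDB1, and a large part of the family lies in clusters on chromosome 19. The symbol is also given to proteins with other zinc-binding folds and to proteins that act on RNA or ribosomes.

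No row was at 0, and each library had a shared low value of between 0.0783 and 0.119 FPKM. Read depth is unknown. The lineage genes PAX8 and SOX17 were at 136 and 143 FPKM in Ku DMSO and at 124 and 117 FPKM in Cov DMSO, and 12 and 13 of 14 serous ovarian epithelial markers had a mean above 1 FPKM, while WT1 was at 0.653 FPKM in Cov and MUC16 at 0.166 FPKM in Ku. The 5 leukocyte markers summed to 1.92 to 5.15 FPKM over all libraries, most of it CD68, and the 6 endothelial and stromal markers to 3.92 to 12.3 FPKM. Above 1 FPKM in DMSO were 1 of the 5 leukocyte markers in each line, and 2 of the 6 endothelial and stromal markers in Ku and 1 in Cov. PTPRC and CD3E, listed for leukocytes, and DCN and LUM, listed for stroma, had DMSO means between 0.106 and 0.235 FPKM. In such bulk libraries, fewer cells with a transcript and less of it per cell cannot be told apart.

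In DMSO, the means of the 66 ZNF genes ran from 10.2 to 125 FPKM in Ku cells, with a median of 22.4, and from 10.2 to 149 FPKM in Cov cells, with a median of 24.6. The highest over both lines were ZNF146, ZNF207, ZNF593, ZNF664 and ZNF259. ZNF146, also known as OZF and made almost wholly of zinc fingers, measured 136 and 113 FPKM in Ku and 109 and 122 FPKM in Cov. ZNF207, the spindle assembly factor BuGZ, measured 94.6 and 87.5 FPKM in Ku and 142 and 157 FPKM in Cov. Just inside the minimum were ZNF408, with means of 10.2 FPKM in Ku and 10.2 in Cov, ZNF574, with 23.4 and 10.3, and ZNF609, with 10.3 and 11.9. Just outside it were ZNF212, with 9.84 FPKM in Ku and 16.6 in Cov, ZNF143, a transcription factor of many promoters, with 10.2 and 9.77, and ZNF414, with 9.72 and 15.1.

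The members were chosen on DMSO values, which are on neither side of the comparison of the 2 THZ1 doses. In Ku cells the median of the 66 genes was 11.5 and 10.98 FPKM in the 50 nM libraries and 2.33 and 2.63 FPKM in the 250 nM libraries. In Cov cells it was 7.06 and 7.99 FPKM at 50 nM and 3.08 and 3.49 FPKM at 250 nM. The gene in the middle of the list thus kept 23.2% of its 50 nM level at 250 nM in Ku and 41.1% in Cov, whereas the other 6855 genes with the same DMSO minimum kept a median of 55.1% and 65.8%. Both 50 nM libraries lay above both 250 nM libraries for 65 of 66 ZNF genes in Ku and 63 of 66 in Cov, beside 97.2% and 91.3% of all genes with the minimum. The direction of the step was thus shared with most of these genes, and its size was larger in the median ZNF gene.

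**Figure D1:**
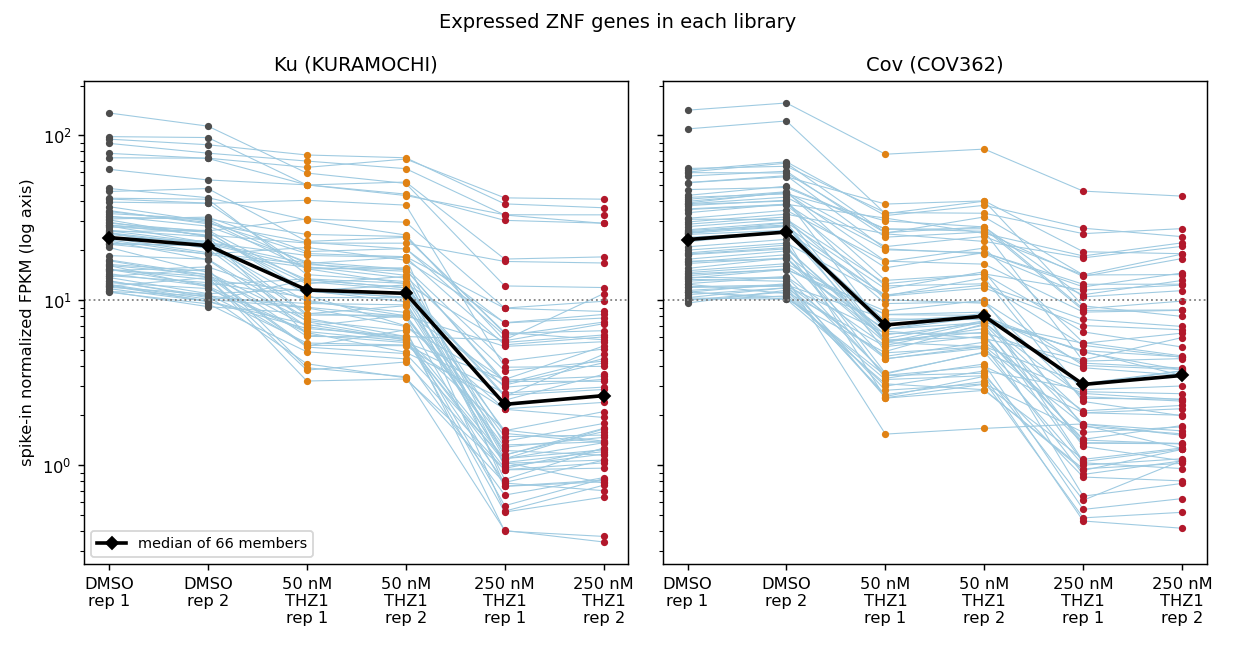
Spike-in normalized FPKM (log axis) of each of the 66 ZNF genes in the 6 libraries of each line. Thin lines join a gene's values, diamonds give the median of the 66, and the dotted line marks the minimum of 10 FPKM on the DMSO mean. The median falls from 23.9 and 21.4 FPKM in the Ku DMSO libraries to 2.33 and 2.63 at 250 nM.

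Differences were tested with limma on log2(FPKM + 1), a scale that understates the change of low genes, with the Benjamini-Hochberg adjustment over 14251 active genes. Calls required a log2 difference beyond 0.5 together with an adjusted p below 0.001. At 250 nM against 50 nM, 55 of 66 ZNF genes were called lower in Ku cells, beside 36.0% of all active genes and 54.5% of the genes with the same DMSO minimum. In Cov cells 41 of 66 were called lower, beside 24.4% and 34.9%. The median log2 difference of the ZNF genes was -1.67 in Ku and -0.99 in Cov, against -0.80 and -0.56 for the other genes with the minimum, and 57 and 52 of the 66 lay below the median of all genes with the minimum. No ZNF gene was called higher in limma, and 0 were higher at an unadjusted p under 0.05, beside 0.0421% of active genes called higher in Ku and 0.0842% in Cov. For any one gene, the smallest p of an exact permutation test (two-sided) with groups of 2 is 0.33. Without any 1 of the Ku THZ1 libraries, fewer ZNF genes were called lower, as were fewer of all genes with the minimum. The Ku median stayed between -1.74 and -1.61. The DMSO libraries share the estimate of spread in the main fits, and fits of only the THZ1 groups called 52 lower in Ku and 34 in Cov. Of the 42 members named by rule, 37 were called in Ku and 26 in Cov. The call held whichever 1 library was left out for 15 in Ku (ZNF7, ZNF146, ZNF217, ZNF263, ZNF282, ZNF322, ZNF330, ZNF503, ZNF574, ZNF580, ZNF581, ZNF593, ZNF622, ZNF639 and ZNF672). In Cov it held for 19, and it was lost at least once for ZNF207, ZNF281, ZNF302, ZNF384, ZNF623, ZNF644 and ZNF687.

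These directions hold on the spike-in scale. Scaling each library to an equal median moved the median difference of all active genes from -0.62 to 0.24 in Ku and from -0.41 to 0.21 in Cov, and median-of-ratios scaling moved it to 0.03 and 0.04. After equal-median scaling, 27 ZNF genes were lower and 1 higher in Ku and 20 lower and 0 higher in Cov, with 14 and 23 of the 66 differences above 0. Of the genes with the minimum, 8.32% were lower and 8.81% higher in Ku under this scaling, and 7.15% and 4% in Cov. The list stayed to the lower side of the genes with the same minimum: its median was -0.71 against 0.38 in Ku and -0.39 against 0.23 in Cov, with 59 and 54 of 66 below that median. The step turned upward in both lines under equal-median scaling for 11 genes, ZNF185, ZNF207, ZNF259, ZNF300, ZNF326, ZNF335, ZNF428, ZNF511, ZNF512, ZNF638 and ZNF664. It turned upward in 1 line for ZNF226 and ZNF251 in Ku and for ZNF444, ZNF496, ZNF544, ZNF580, ZNF593, ZNF598, ZNF692, ZNF706, ZNF740, ZNF768 and ZNF787 in Cov.

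**Figure D2:**
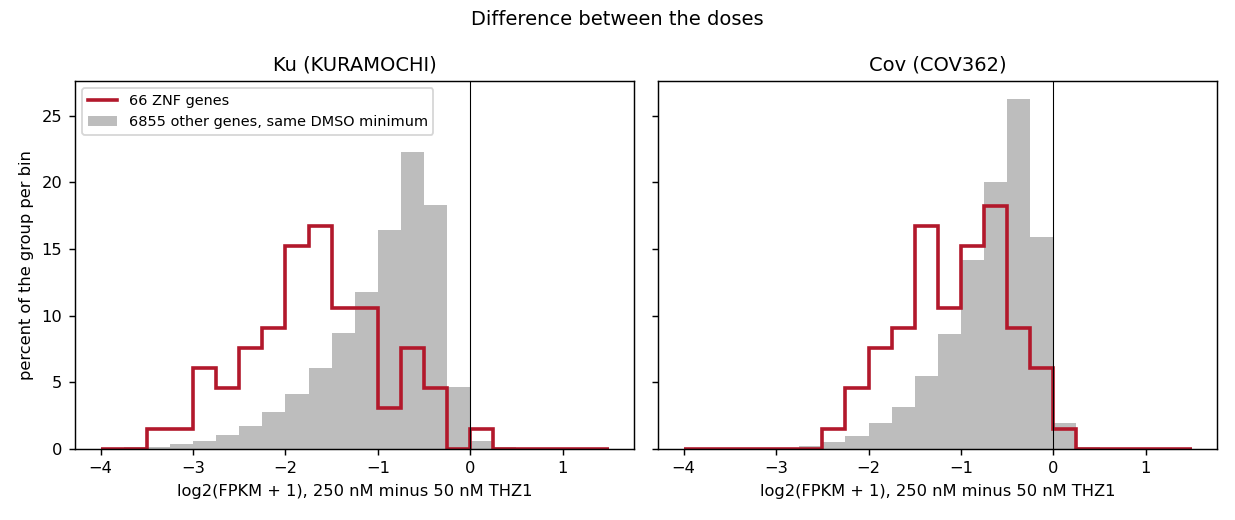
Distribution of the difference in log2(FPKM + 1) between 250 nM and 50 nM THZ1, as percent of each group per bin of 0.25, for the 66 ZNF genes (red outline) and the 6855 other genes with the same DMSO minimum (grey bars, of which 16 in Ku and 17 in Cov lie beyond the plotted range). The ZNF genes lie to the left of the grey bars in Ku (medians -1.67 and -0.80) and in Cov (-0.99 and -0.56).

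Against DMSO, whose libraries also chose the members, the values are given as a description. At 50 nM, the median ZNF gene kept 53.0% of its DMSO level in Ku and 39.0% in Cov, and 16 and 61 of 66 genes were called lower, beside 11.3% and 70.5% of active genes and 13.2% and 81.5% of genes with the minimum. At 250 nM it kept 11.7% in Ku and 13.3% in Cov, where other genes with the minimum kept 38.5% and 33.3%. The counts were 65 of 66 in Ku and 66 of 66 in Cov, beside 68.6% and 84.0% of active genes and 86.0% and 97.1% of genes with the minimum. The exception in Ku was ZNF692. No ZNF gene was called higher against DMSO by limma and 0 were higher at an unadjusted p under 0.05, beside 0.0842% of active genes at 50 nM and 0.0491% at 250 nM in Ku, and 0.0772% and 0.105% in Cov. These calls too hold on the spike-in scale. At 50 nM against DMSO, 0 members in Ku and 1 in Cov were called lower after equal-median scaling (beside 0.824% and 0.188% of genes with the minimum), with 27 and 29 of 66 differences above 0, and 1 and 3 after median-of-ratios scaling (beside 3.05% and 0.925%). At 250 nM against DMSO the lower calls were 39 in Ku and 35 in Cov after equal-median scaling and 48 and 42 after median-of-ratios scaling. Equal-median scaling at that dose gave 4 members called higher in Ku and 5 in Cov, with 12 and 21 of 66 differences above 0, beside 41.7% and 39.1% of genes with the minimum called higher, and median-of-ratios scaling gave 1 and 0, beside 19.5% and 13.9%. Values in the order DMSO, 50 nM, 250 nM with no overlap between groups were seen for 59 genes in Ku and 63 in Cov, beside 76.0% and 90.8% of genes with the minimum. The mean fell under 1 FPKM at 250 nM for 13 members in Ku and 9 in Cov, and under 10 FPKM for 58 and 52. The shares of other genes under these levels are not given here, so these counts describe the members only. The count of 16 in Ku at 50 nM was 0 after leaving out any 1 of the 6 Ku libraries, with 47 to 59 members still lower at an unadjusted p under 0.05. The count of 61 in Cov was 35 without DMSO replicate 2.

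On the log2(FPKM + 1) scale, the deepest falls from DMSO to 250 nM in Ku cells were those of ZNF581, ZNF503, ZNF574, ZNF7, ZNF672 and ZNF322. ZNF503 (chr10:77157588-77161522 on GRCh37), a developmental transcriptional repressor of the NET family, measured 31.9 and 30.8 FPKM in DMSO, 16.7 and 18.2 at 50 nM and 0.744 and 0.808 at 250 nM. Its libraries at the 3 doses did not overlap, and the step between the THZ1 doses was -3.38 on the log2 scale (SE 0.105, adjusted p = 2.8e-05), the deepest of the 66 in Ku. Exons of ZNF503 overlap those of other annotated genes, so its values are uncertain. ZNF581 measured 41.5 and 40.9 FPKM in DMSO, 14.3 and 13.0 at 50 nM and 0.816 and 1.27 at 250 nM, a step of -2.85 (SE 0.138, adjusted p = 5.4e-05). ZNF574 went from 25.03 and 21.9 FPKM through 11.4 and 12.3 to 0.525 and 0.754, a step of -2.98 (SE 0.136, adjusted p = 5.1e-05). ZNF7, ZNF672 and ZNF322 were at 1.07 FPKM or less, 1.04 or less and 1.16 or less at 250 nM, and their steps were -2.50, -2.36 and -2.98. All 6 were thus below 5% of their DMSO level at 250 nM. By the share of the DMSO level left, without the added 1 FPKM, the order differed: ZNF16 kept 2.41% and ZNF579, named after its values were seen, kept 2.53%, beside 2.48% for ZNF503 and 4.42% for ZNF322.

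In Cov cells the deepest falls on the same scale were those of ZNF7, ZNF16, ZNF146, ZNF623, ZNF282 and ZNF302. ZNF7 measured 37.4 and 40.3 FPKM in DMSO, 6.64 and 8.37 at 50 nM and 1.30 and 1.06 at 250 nM, which left 3.03% of the DMSO level, and its step between THZ1 doses was -1.96 (SE 0.129, adjusted p = 5.7e-05). ZNF146 went from 109 and 122 FPKM through 33.4 and 39.8 to 9.22 and 7.96, a step of -1.97 (SE 0.12, adjusted p = 4.8e-05). In Ku it went from 136 and 113 through 58.9 and 51.0 to 12.2 and 11.9, a step of -2.10. At 50 nM ZNF623 had gone from 21.0 and 23.3 FPKM to 2.54 and 2.84, which was 74.8% of its whole log2 fall, and ZNF16 from 17.7 and 19.9 to 3.35 and 4.10, which was 56.8%. ZNF282, which is known to bind a repressive element of a viral promoter, and ZNF302 kept 6.47% and 5.98% of their DMSO level at 250 nM. By that share ZNF322 and ZNF260, at 3.84% and 4.72%, lay below ZNF146, at 7.44%, and ZNF260 was named after its values were seen.

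The smallest falls from DMSO to 250 nM on the log2(FPKM + 1) scale in Ku cells were those of ZNF185, ZNF428, ZNF664, ZNF692, ZNF326 and ZNF207, and in Cov cells those of ZNF428, ZNF580, ZNF185, ZNF511, ZNF335 and ZNF664. ZNF185, an actin-associated LIM-domain protein and not a DNA reader, measured 28.5 and 24.8 FPKM in Ku DMSO, 22.2 and 22.1 at 50 nM and 17.1 and 16.8 at 250 nM. In Cov it went from 27.9 and 30.9 FPKM through 12.6 and 14.4 to 11.5 and 12.3. Its step between THZ1 doses did not pass the thresholds in either line, at -0.37 (SE 0.0902, adjusted p = 0.0114) in Ku and -0.16 (SE 0.105, adjusted p = 0.218) in Cov. ZNF428 measured 72.9 and 72.5 FPKM in Ku DMSO, 63.8 and 71.7 at 50 nM and 41.7 and 40.9 at 250 nM, and the last step of -0.70 passed (SE 0.073, adjusted p = 0.000363). In Cov, ZNF428 kept 62.3% of its DMSO level, and the step of -0.28 did not pass (adjusted p = 0.0678). ZNF664 kept 51.6% in Ku and 39.5% in Cov, and its steps of -0.63 and -0.43 did not pass in either line. Neither line gave a call between the THZ1 doses for 10 members: ZNF185, ZNF226, ZNF251, ZNF300, ZNF326, ZNF335, ZNF512, ZNF544, ZNF664 and ZNF692, of which ZNF226, ZNF251, ZNF300, ZNF512 and ZNF544 were named after their values were seen.

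Of the ZNF genes with roles in RNA, ribosome or ubiquitin biology, 8 of the 11 listed were members: ZNF593, ZNF622, ZNF598, ZNF207, ZNF326, ZNF330, ZNF346 and ZNF638. All 8 differences between THZ1 doses were below 0 in both lines. In Ku 7 of 8 were called lower (87.5%, beside 54.5% of genes with the minimum), with a median log2 difference of -1.39, and in Cov 3 of 8 (37.5%, beside 34.9%), with a median of -0.70. Without any 1 of the Ku libraries, fewer were called, both in this list and among all genes with the minimum. The Ku medians ran from -1.49 to -1.25 and the Cov medians from -0.82 to -0.59 whichever 1 library was left out. ZNF622, which takes part in maturation of the large ribosomal subunit, had the deepest step of the group, -3.02 in Ku (SE 0.0782, adjusted p = 2.6e-05) and -2.37 in Cov (SE 0.0817, adjusted p = 3.4e-05). ZNF593, a factor of the same maturation pathway, measured 98.0 and 96.7 FPKM in Ku DMSO, 49.9 and 52.0 at 50 nM and 17.7 and 18.3 at 250 nM, a step of -1.45 that passed (adjusted p = 4.5e-05). In Cov it went from 59.3 and 58.9 FPKM through 25.5 and 31.9 to 14.2 and 19.01, and the step of -0.76 did not pass (adjusted p = 0.0049).

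ZNF598, the ubiquitin ligase that marks collided ribosomes, fell by 1.46 on the log2 scale in Ku (adjusted p = 0.000116), from 19.7 and 20.5 FPKM to 6.09 and 7.35, and its step in Cov was -0.54 (adjusted p = 0.00484), from 20.2 and 19.4 to 12.02 and 14.6. ZNF330, a nucleolar protein, fell in both lines, by 1.79 in Ku and 1.53 in Cov. ZNF207 also fell in both, by 0.98 in Ku, from 75.8 and 72.9 to 38.3 and 36.3 FPKM, and by 0.83 in Cov, from 76.6 and 82.3 to 45.8 and 42.7. The steps of ZNF207 were smaller than the median of the 66 in each line. ZNF346, a double-stranded RNA binding protein, and ZNF638, a nuclear protein tied to silencing of unintegrated retroviral DNA, fell in Ku by 1.34 and 1.13, and their Cov steps of -0.64 and -0.65 did not pass. ZNF326, a subunit of the DBIRD complex that couples elongation to splicing, passed in neither line, at -0.48 and -0.45.

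Of the ZNF genes with named roles in transcription or chromatin, 14 of the 29 listed were members. All 14 differences between THZ1 doses were below 0 in both lines. In Ku 13 of 14 were called lower (92.9%, beside 54.5% of genes with the minimum), with a median of -1.91, and in Cov 12 of 14 (85.7%, beside 34.9%), with a median of -1.41. The Ku count was 4 without replicate 1 of either THZ1 dose, 6 without 50 nM replicate 2 and 7 without 250 nM replicate 2 (beside 10.2%, 18.7% and 12.9% of genes with the minimum), with medians of -2.07 to -1.76. Without 1 of the 250 nM libraries in Cov, fewer were called, both in this list and among all genes with the minimum. The Cov medians ran from -1.54 to -1.27 whichever 1 library was left out. ZNF217, an amplified oncogene in several carcinomas that works with the CoREST corepressor, measured 15.8 and 15.0 FPKM at 50 nM and 1.15 and 1.67 at 250 nM in Ku, a step of -2.77 (SE 0.159, adjusted p = 6.8e-05), and 17.1 and 20.7 against 5.52 and 4.58 in Cov, a step of -1.71. ZNF639, also known as ZASC1, fell by 2.74 in Ku and 2.02 in Cov. ZNF263, a SCAN-domain factor, had differences of -2.65 in Ku and -2.12 in Cov. These 3 had 250 nM libraries at or below 5.52 FPKM in both lines.

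ZNF281 and ZNF148, related factors that bind GC-rich DNA, fell by 2.24 and 2.06 in Ku and by 1.34 and 1.48 in Cov. ZNF24, ZNF131 and ZNF146 fell by 1.82, 1.95 and 2.10 in Ku and by 1.92, 1.18 and 1.97 in Cov. ZNF274, which recruits SETDB1 to ZNF gene clusters, went from 6.45 and 5.63 FPKM to 1.03 and 1.21 in Ku and from 5.55 and 6.72 to 1.37 and 1.35 in Cov, steps of -1.73 and -1.59 that passed. ZNF644, a partner of the methyltransferases EHMT1 and EHMT2, fell by 1.86 and 1.13, and ZNF687, a partner of ZMYND8, by 1.65 and 1.01. ZNF384 fell by 1.54 in Ku and 0.90 in Cov. ZNF496, which binds the methyltransferase NSD1, fell by 1.51 in Ku, and its Cov step of -0.53 did not pass (adjusted p = 0.00495). ZNF335, a component of histone H3K4 methyltransferase complexes, passed in neither line, with steps of -0.74 and -0.21.

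The path from DMSO to 250 nM differed between members. In Ku the median member reached 35.2% of its whole log2 fall at 50 nM, and in Cov 56.8%. ZNF622 in Ku measured 39.3 and 38.6 FPKM in DMSO, 40.3 and 37.7 at 50 nM and 3.92 and 3.96 at 250 nM. The DMSO and 50 nM libraries overlapped, and both lay far above the 250 nM libraries. ZNF263 in Ku measured 12.3 and 9.85 FPKM in DMSO, 13.3 and 11.9 at 50 nM and 1.09 and 1.24 at 250 nM, with the same overlap. ZNF12, ZNF317 and ZNF655, named after their values were seen, also had overlapping DMSO and 50 nM libraries in Ku. In Cov none of these 5 overlapped at 50 nM: ZNF622 went from 46.8 and 48.2 FPKM through 27.0 and 26.1 to 4.27 and 4.41, and ZNF263 from 14.4 and 15.3 through 8.18 and 8.45 to 1.05 and 1.25.

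On the spike-in scale, ZNF580 was the only member with both 50 nM libraries above both DMSO libraries, and this was in Ku. It measured 28.4 and 26.3 FPKM in DMSO, 31.0 and 29.7 at 50 nM and 8.94 and 9.83 at 250 nM in Ku, and 35.7 and 38.1, 31.4 and 25.4, and 18.5 and 22.2 in Cov. Its step between THZ1 doses was -1.59 in Ku (SE 0.088, adjusted p = 6.4e-05) and -0.46 in Cov (SE 0.132, adjusted p = 0.0205). The other extreme was ZNF692, which in Ku went from 18.6 and 17.7 FPKM in DMSO to 7.77 and 6.01 at 50 nM and to 5.74 and 10.9 at 250 nM. The 2 libraries at 250 nM stood far apart and enclosed those at 50 nM, so no step was detectable (difference 0.19, SE 0.276, adjusted p = 0.55). In Cov, ZNF692 went from 12.5 and 10.95 FPKM through 3.01 and 3.72 to 2.86 and 3.01, again with no call (-0.14, adjusted p = 0.34). ZNF251 had the same form in Cov, with 13.8 and 13.5 FPKM in DMSO, 1.54 and 1.67 at 50 nM and 1.77 and 1.61 at 250 nM (0.05, SE 0.0952, adjusted p = 0.694).

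**Figure D3:**
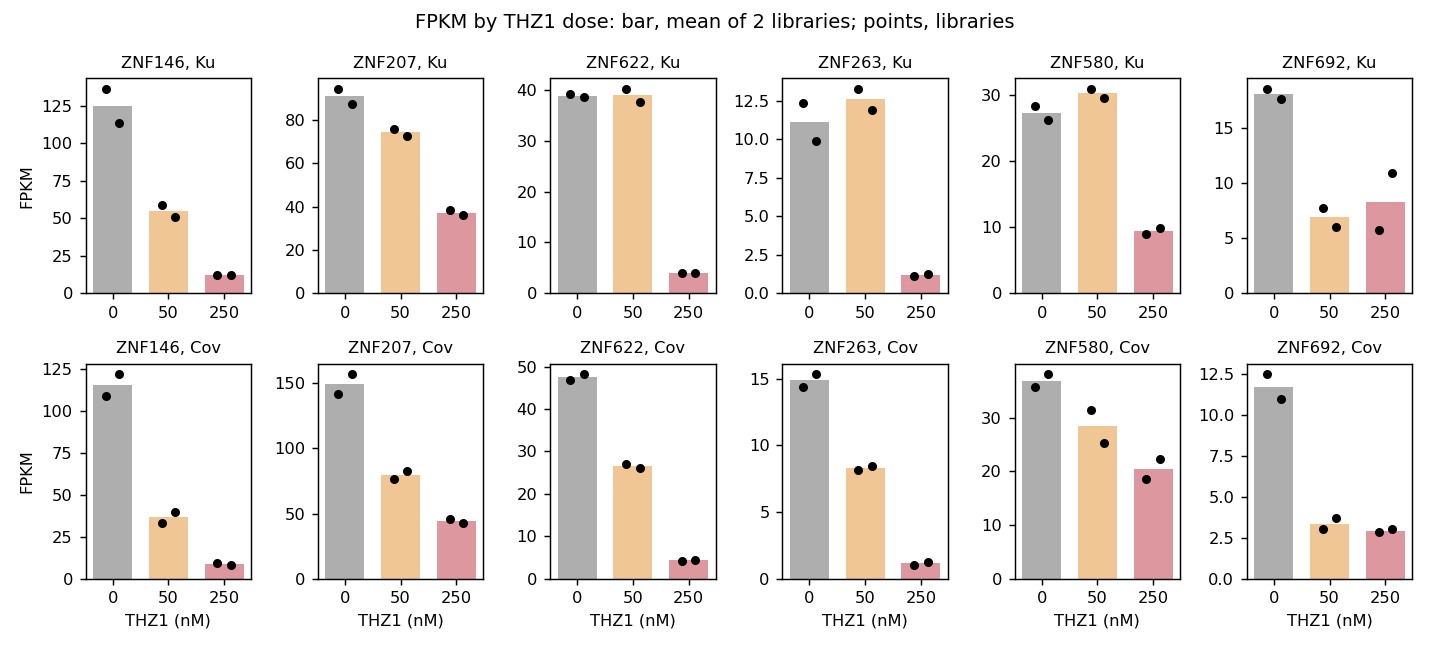
FPKM against THZ1 dose for 6 ZNF genes, with Ku in the upper row and Cov in the lower. Bars are means of 2 libraries and points are the libraries, and each panel has its own axis from 0. In Ku, ZNF622 and ZNF263 have overlapping DMSO and 50 nM libraries and lower ones at 250 nM, the 250 nM libraries of ZNF692 lie on either side of those at 50 nM, and ZNF580 has its highest values at 50 nM.

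Promoter windows, 250 bases before to 50 bases after the start of each gene, were found in RefSeq (GRCh38.p14) for 60 of the 66 genes. The windows of ZNF7, ZNF16, ZNF251, ZNF623, ZNF706 and ZNF707 were not analysed here. The core of sites for ETS factors, CGGAAG on either strand, was in 56.7% of the members' windows, in 38.3% of those of other genes with the minimum and in 19.9% of all windows. GGGCGG, the core of the GC box, was in 65.0%, 73.5% and 44.6%, and CCAAT in 31.7%, 39.0% and 35.7%. TATAAA was in 3.33%, 4.83% and 11.95%, ACTACA, part of the ZNF143 site, in 13.3%, 9.04% and 8.95%, and GCGCATGC, the core of the NRF1 site, in 6.67%, 6.41% and 3.27%. Both strands were searched for each motif, and GGGCGG and CGGAAG can share bases. The median GC content was 64.3% in the members, 65.5% in other genes with the minimum and 58.3% in all. The median step between THZ1 doses was -1.62 in Ku for the 34 members with the ETS core and -1.83 for the 26 without it, and -0.94 and -1.25 in Cov, a difference that was not tested.

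The 250 bases before the start are shown for the 2 members with the deepest and the 2 with the shallowest step between THZ1 doses, averaged over the lines, among the 60 with a window, so that the ends of the response within these 60 can be compared. Capitals mark CGGAAG or its reverse complement CTTCCG. They lie at chr5:16465801-16466050 on the minus strand (ZNF622), chr16:3283241-3283490 on the plus strand (ZNF263), chrX:152914182-152914431 on the plus strand (ZNF185) and chr1:248859086-248859335 on the minus strand (ZNF692) of GRCh38.p14, and are printed 5′ to 3′ on the strand of the gene.
ZNF622: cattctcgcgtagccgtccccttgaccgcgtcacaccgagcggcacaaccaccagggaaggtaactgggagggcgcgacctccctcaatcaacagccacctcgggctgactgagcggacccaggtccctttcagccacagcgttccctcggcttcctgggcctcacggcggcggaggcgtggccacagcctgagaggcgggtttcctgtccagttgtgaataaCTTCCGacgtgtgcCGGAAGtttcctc
ZNF263: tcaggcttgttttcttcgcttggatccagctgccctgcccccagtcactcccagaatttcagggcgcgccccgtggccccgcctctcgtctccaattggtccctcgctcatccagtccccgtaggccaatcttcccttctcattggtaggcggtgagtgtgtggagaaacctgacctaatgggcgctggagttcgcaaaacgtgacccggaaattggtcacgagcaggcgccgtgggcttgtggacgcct
ZNF185: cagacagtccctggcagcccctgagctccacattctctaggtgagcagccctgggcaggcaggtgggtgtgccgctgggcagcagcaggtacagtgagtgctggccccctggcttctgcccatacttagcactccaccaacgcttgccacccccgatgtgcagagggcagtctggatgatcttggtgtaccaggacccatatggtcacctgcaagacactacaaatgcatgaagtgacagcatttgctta
ZNF692: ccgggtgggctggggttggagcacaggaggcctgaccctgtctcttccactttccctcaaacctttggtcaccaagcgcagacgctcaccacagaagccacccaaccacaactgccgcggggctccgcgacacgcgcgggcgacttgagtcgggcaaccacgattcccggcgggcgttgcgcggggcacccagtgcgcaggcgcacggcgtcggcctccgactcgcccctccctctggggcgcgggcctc
ZNF622 held 2 copies of the core in these bases and the others 0. The GC content of the printed bases was 64% for ZNF622, 60.4% for ZNF263, 58.4% for ZNF185 and 70.4% for ZNF692.

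Values of the lines were set side by side for each member. Of the 66 genes, 40 were called lower between THZ1 doses in both lines, 15 in Ku only, 1 in Cov only and 10 in neither. The 40 shared genes are 72.7% of the Ku calls and 97.6% of the Cov calls. Over all genes with the minimum, 31.3% were called lower in both lines, which is 57.5% of the Ku calls and 89.8% of the Cov calls. Across the 66 genes the step had a Spearman's rho of 0.86 and a Pearson's r of 0.82 between the lines, and rho was 0.77 over all 6921 genes with the minimum. Genes are not independent replicates, and the points of each line share 4 libraries, so these are descriptions. ZNF503 had the widest gap between the lines at 250 nM against DMSO, -4.19 in Ku and -1.88 in Cov, where it measured 42.0 and 44.02 FPKM in DMSO, 30.2 and 27.8 at 50 nM and 10.5 and 11.4 at 250 nM. Next were ZNF581, at -4.38 and -2.64, ZNF574, at -3.90 and -2.63, and ZNF768, at -2.86 and -1.83. At the other end ZNF274 was at -2.75 in Ku and -3.42 in Cov, ZNF185 at -0.62 and -1.23, ZNF692 at -1.09 and -1.69, and ZNF207 at -1.26 and -1.73. The difference between the lines was not tested.

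**Figure D4:**
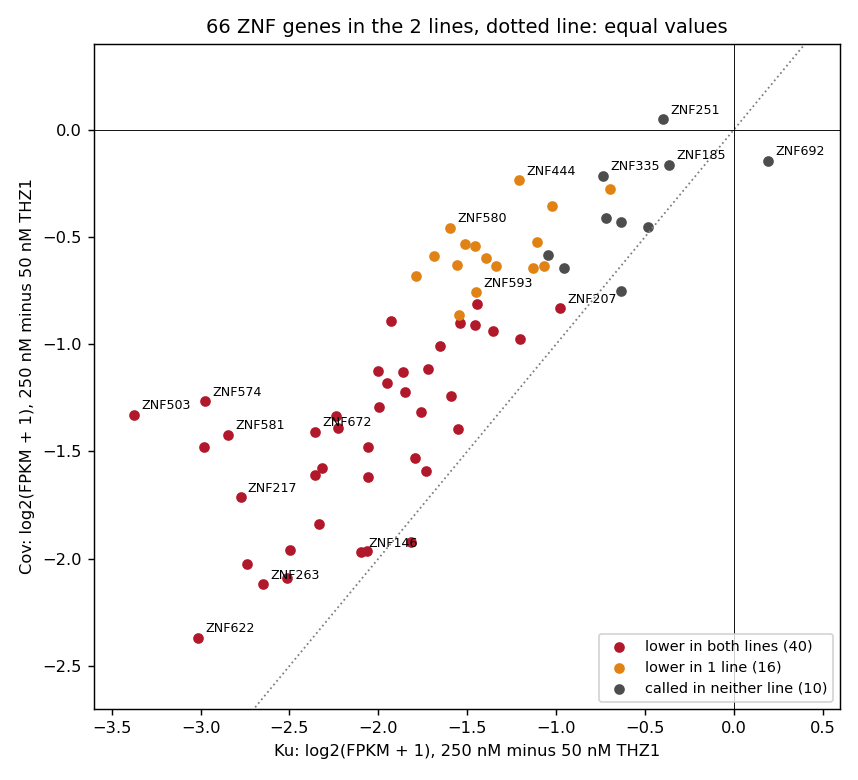
Difference in log2(FPKM + 1) between 250 nM and 50 nM THZ1 for the 66 ZNF genes, with Ku on the horizontal and Cov on the vertical axis. Colours give the calls (40 lower in both lines, 16 in 1 line, 10 in neither), and most points lie above the dotted line of equal values, that is, with the deeper step in Ku.

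All 66 members matched a GENCODE gene on GRCh37, ZNF259 under its current name ZPR1. C2H2 fingers were counted by pattern in the annotated proteins of 65 members (ZNF274 could not be read), and ran from 0 to 18 with a median of 6, against 11 in the other ZNF rows. Those with 0 were ZNF185, ZNF259, ZNF330 and ZNF503. The 19 members with 0 to 3 fingers had a median step between THZ1 doses of -1.39 in Ku and -0.63 in Cov, the 18 with 4 to 7 fingers -1.80 and -1.13, and the 28 with 8 or more -1.96 and -1.28. Called lower were 16 of 19, 16 of 18 and 22 of 28 in Ku, and 6 of 19, 13 of 18 and 21 of 28 in Cov, beside 54.5% and 34.9% of genes with the minimum. Over the 65 genes Spearman's rho of finger number with the step was -0.28 in Ku and -0.31 in Cov, from the same libraries. The medians of the classes thus lay in the same order in both lines, with wide overlap.

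**Figure D5:**
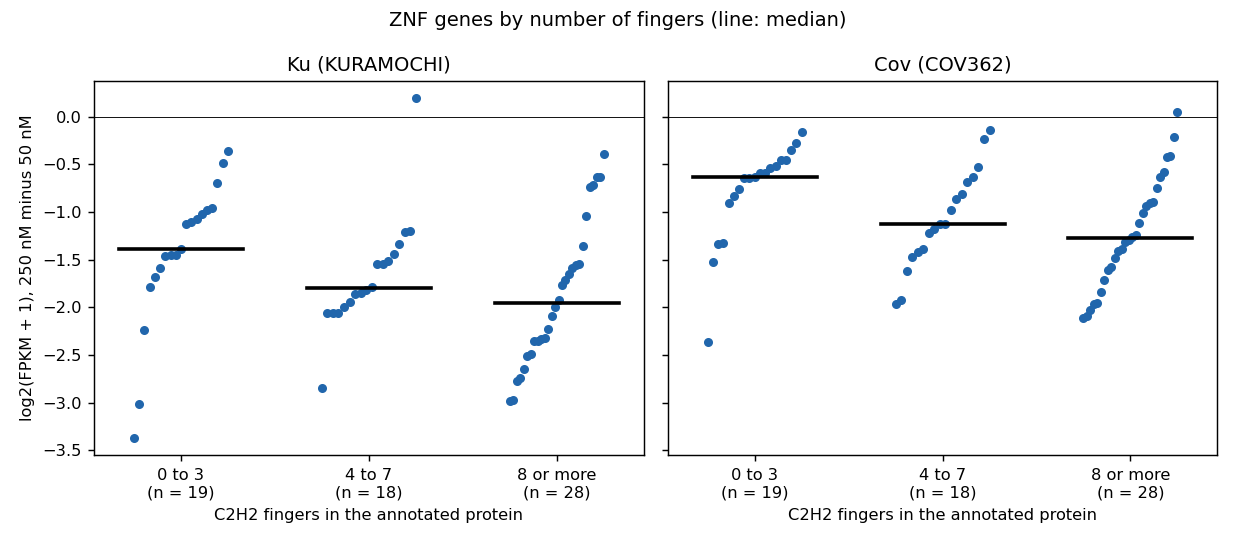
Difference in log2(FPKM + 1) between 250 nM and 50 nM THZ1 for ZNF genes grouped by the number of C2H2 fingers in the annotated protein. Points are genes and lines are class medians (-1.39, -1.80 and -1.96 in Ku, -0.63, -1.13 and -1.28 in Cov), and the classes overlap widely.

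A KRAB-box pattern was found in 10 of 65 members (15.4%) and in 252 of 392 other ZNF rows (64.3%), and diverged boxes can be missed by this search. The 10 members had a median step of -1.55 in Ku and -0.99 in Cov, and the 55 without the pattern -1.69 and -0.98. Called lower were 5 of 10 with the pattern and 49 of 55 without it in Ku, and 6 of 10 and 34 of 55 in Cov, beside 54.5% and 34.9% of genes with the minimum. Chromosome 19 held 15 members (22.7%), against 54.8% of the other ZNF rows, and those 15 had median steps of -1.76 and -1.29, with -1.59 and -0.94 for the 51 elsewhere. Members had a median of 6 exons, against 9 in other genes with the minimum, and the 21 members with 2 to 4 exons had steps of -1.85 and -1.27 while the 19 with 9 or more had -1.46 and -0.64. Spearman's rho of exon number with the step was 0.42 in Ku and 0.26 in Cov over the 66 members, and 0.02 and 0.01 over 6676 other genes with the minimum. Transcript length had a rho of -0.01 and -0.09 with the step in members, and -0.26 and -0.29 in the 6676 other genes.

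ZNF672 and ZNF692 lie tail to tail on chromosome 1 with 488 bases between them (chr1:249132409-249143716 and chr1:249144205-249153343 on GRCh37), and their differences at 250 nM against DMSO were -3.68 and -1.09 in Ku, a gap of 2.59, and -3.02 and -1.69 in Cov, a gap of 1.33. ZNF580 and ZNF581 overlap in span on the same strand of chromosome 19 (chr19:56146382-56154836 and chr19:56146825-56156989), and their differences were -1.45 and -4.38 in Ku, a gap of 2.93, and -0.83 and -2.64 in Cov, a gap of 1.81. These pairs were chosen after their values were seen, from 5 pairs of adjacent members whose spans overlapped or lay within 50000 bases. The gaps of the other 3 pairs in the same contrast ran from 0.37 to 0.86 in Ku and from 0.46 to 1.80 in Cov, where ZNF623 and ZNF707 had the 1.80.

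Other zinc finger genes with the same DMSO minimum, by the names ZFP, ZSCAN, ZKSCAN or ZBTB, numbered 13, none of them a ZSCAN gene. All 13 were called lower between THZ1 doses in Ku (beside 54.5% of genes with the minimum), with a median of -1.77, and 8 of 13 in Cov (61.5%, beside 34.9%), with a median of -1.13. ZBTB17, also known as MIZ1 and a binding partner of MYC, was named with ZFP36 after the values were seen, and fell by 1.79 in Ku and 1.23 in Cov. ZFP36, a CCCH-type protein that destabilizes AU-rich mRNAs and so not a C2H2 protein, fell by 1.46 in Ku and rose by 0.82 in Cov, where it was the only one of the 13 called higher. Among 29 listed corepressor partners of KRAB proteins, 17 (58.6%) were lower between THZ1 doses in Ku and 11 (37.9%) in Cov. The shares were 54.5% and 34.9% of genes with the minimum, and 36.0% and 24.4% of all active genes. This list was not held to the minimum. Its medians of -0.77 and -0.57 were close to those of all genes with the minimum (-0.81 and -0.56) and below those of all active genes (-0.62 and -0.41). TRIM28, the central corepressor, fell by 0.91 in Ku and stood at -0.52 in Cov without passing, and it kept 47.9% and 44.1% of its DMSO level at 250 nM. SETDB1, the methyltransferase it recruits, fell by 1.42 and 0.75 and kept 14.1% and 16.5%. The lowest and highest of the list at 250 nM against 50 nM were DAXX in Ku (-2.11) and ATF7IP in Cov (-1.39), and FAM208A in Ku (-0.13) and MORC2 in Cov (0.03).

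Of the 406 other ZNF rows, 359 were active under the minimum and 47 were not active. In the 359, 123 (34.3%) were called lower between THZ1 doses in Ku and 95 (26.5%) in Cov, near the shares of all active genes (36.0% and 24.4%). Their median level at 250 nM was 28.6% of that at 50 nM in Ku and 45.3% in Cov, with levels low enough that the added 1 FPKM shrinks the log2 differences (medians -0.72 and -0.50). ZNF genes below the minimum thus kept shares nearer to those of the members (23.2% and 41.1%) than to those of other genes above the minimum (55.1% and 65.8%).

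In 18 of the 66 members exons overlapped those of another annotated gene by 50 bases or more. On the opposite strand these included ZNF687 with PI4KB, ZNF428 with SRRM5, ZNF593 with ZNF593OS and ZNF503 with ZNF503-AS2. On the same strand they included ZNF511 with ZNF511-PRAP1. ZNF503 and ZNF207 also overlapped a further gene on the same strand, and ZNF217 one on the opposite strand. The libraries were stranded, but whether quantification used the strand is not given in the sources used here, so these values are uncertain, as are those of multi-finger paralogs that can share reads. Over the 48 members without such an overlap, 40 were lower between THZ1 doses in Ku and 33 in Cov, beside 54.5% and 34.9% of genes with the minimum, with medians of -1.79 and -1.23.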

How the data were processed

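RNA-seq libraries of Ku and Cov cells (2 biological replicates per condition) were prepared by the authors from cell-count-normalized RNA mixed with ERCC spike-ins, using a stranded poly(A) kit with single-end reads. Per the labels and the study's methods, reads were aligned to hg19 with HISAT, and the deposited FPKM values came from Cufflinks tools (Cuffnorm) and were normalized by the authors to the spike-ins. These are not counts, so edgeR, which the study names for its own calls, was not used. Depth is unknown, no interval based on counts is given, and the number of libraries limits the precision.

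Active genes had an FPKM above 1 in at least 1 of 12 libraries (14251, ERCC rows left out). Each line was fitted alone with limma 3.58.1 in R 4.3.3 (lmFit, eBayes with trend) on log2(FPKM + 1) with 3 groups of 2, and p-values are two-sided and adjusted over all active genes by the Benjamini-Hochberg method. The script was tested on data simulated for Ku at 250 nM against DMSO. Of 200 changed genes, 57 were called in the right direction and 0 in the wrong one, with 0 unchanged genes called. Of 8550 changed genes, 6728 were called in the right direction, with 3 unchanged genes called. A true change can thus fail to pass. Genes were located with GENCODE v44 lifted to GRCh37, where 1 member matched through a synonym, C2H2 and KRAB patterns were searched in its annotated proteins, and promoter windows came from RefSeq.

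The members and gene lists were chosen with earlier results of these data known. Members were named if they had the 5 highest DMSO levels, the 6 lowest or 6 highest differences of 250 nM against DMSO in a line, a place in either list of roles, the 4 widest gaps between lines in each direction, treated libraries above their controls, or a place beside the minimum. Up to 8 corepressor genes were named for their role or extreme values. Alternatives were a pseudocount of 0.1, other minima, 2 scalings, a fit of 2 groups, the replicate block, no trend, other thresholds, each library left out, other DMSO minima and, chosen after seeing the data, members without exon overlap.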

Additional observations from a re-analysis of the deposited data

Results flagged for a closer look

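ZNF580 moved in opposite directions at 50 nM against DMSO in the lines: both 50 nM libraries lay above both DMSO libraries in Ku (log2 difference 0.15) and below both in Cov (-0.37). The opposite directions were seen on the spike-in scale only. After equal-median scaling and after median-of-ratios scaling, the difference was upward in both lines. The difference between the lines was not tested, and neither value passed the thresholds of the test within its line.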

How the results depend on the processing

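Counts are of members called lower, and values are given for 250 nM against 50 nM, 50 nM against DMSO and 250 nM against DMSO in that order unless named. The members' median stayed below 0 under every alternative, and the cause of each change was not tested. A minimum of FPKM 10 in at least 1 library, eBayes without the trend and a log2 difference beyond 1 kept each count within 1.5 times.

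Equal-median scaling gave counts of 27, 0 and 39 in Ku (medians -0.71, -0.20 and -0.96) and 20, 1 and 35 in Cov (medians -0.39, -0.12 and -0.77), beside 8.32%, 0.824% and 12.8% of genes with the minimum in Ku and 7.15%, 0.188% and 13% in Cov. Median-of-ratios scaling gave 35, 1 and 48 in Ku (medians -0.98, -0.34 and -1.40) and 22, 3 and 42 in Cov (medians -0.60, -0.30 and -1.15), beside 15%, 3.05% and 22.1% in Ku and 11.4%, 0.925% and 22.5% in Cov. A pseudocount of 0.1 moved the medians at 250 nM against 50 nM and against DMSO to -2.07 and -3.04 in Ku and to -1.26 and -2.88 in Cov. Without a minimum FPKM, Ku counts were 33 at 250 nM against 50 nM and 0 at 50 nM against DMSO. The latter count was also 0 in a fit of only the 2 groups, and 45 at an adjusted p under 0.05. At an unadjusted p under 0.05 in limma, it was 56 without a minimum, 27 after equal-median scaling and 55 in the fit of 2 groups.

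A DMSO minimum of 5 FPKM gave 136 members, with counts of 99, 34 and 134 in Ku and 72, 122 and 133 in Cov, and medians of -1.47 in Ku and -0.88 in Cov between THZ1 doses and -2.39 in Cov at 250 nM against DMSO. A minimum of 20 FPKM gave 30 members, with counts of 27, 8 and 30 in Ku (medians -1.57, -0.66 and -2.39) and 17, 27 and 30 in Cov (medians -0.90, -1.06 and -2.13). Between THZ1 doses, all genes passing 5 FPKM had medians of -0.81 in Ku and -0.55 in Cov. Those passing 20 FPKM had -0.75 and -0.53. The shares of all genes called under these 2 minima are not given here. In the 48 members without exon overlap the medians were -1.79 and -0.94 in Ku for the first 2 comparisons and -1.23, -1.41 and -2.59 in Cov.

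Leaving out 1 library gave Ku counts of 17 to 53, 0 to 0 and 58 to 64 (medians -1.74 to -1.61, -0.93 to -0.81 and -2.68 to -2.45) and Cov counts of 28 to 41, 35 to 60 and 64 to 66 (medians -1.04 to -0.97, -1.32 to -1.22 and -2.52 to -2.46). The Cov count of 35 was that without DMSO replicate 2. A lone remaining library was assumed to vary like the other groups. Between THZ1 doses in Ku, calls among all genes with the minimum were fewer in these fits too. Deviations of libraries with the same replicate number correlated between -0.0703 and 0.0282, so the numbers do not pair the samples. With the replicate block, the count at 50 nM against DMSO in Ku was 5 and that between THZ1 doses in Cov 24, and the other 4 counts stayed within 1.5 times. There were 2 libraries per condition, which limits the precision of these results, and depth is unknown.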
